A study of Mus musculus with 2 samples.

Results

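Microglia low in MHC class II are the resident macrophages of the optic nerve that carry little RNA of the antigen-presenting genes H2-Aa, H2-Ab1 and H2-Eb1. Barcodes, each standing for 1 captured cell, were chosen by measured values. A member had at least 2 UMIs (molecular tags that count each captured RNA once) of P2ry12 and Tmem119 together, at most 2 of Mrc1 and Pf4, at most 1 of Cd3d, Cd3e and Cd3g, and under 50 UMIs of the MHC class II genes per 10000 of its own. The rule found 1384 of the 19834 kept barcodes, 614 in the vancomycin library and 770 in the control library. All cells came from optic nerves of Nf1-OPG mice, which carry 1 floxed Nf1 allele and 1 allele interrupted by a neomycin cassette. GFAP-Cre removes the floxed copy in neuroglial progenitors, so microglia were not the targeted lineage. The vancomycin group received this antibiotic from 6 to 12 weeks of age, and the control group is labelled control, with PBS named as the alternative in the study design. Nerves of 10 mice were pooled at 12 weeks into 1 library per group, and the protocols also describe a separate suspension of dura. With 1 library per group there is no replicate spread and no test, and every interval here is a 95% interval for counting error only.

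Microglia survey nerve tissue through purinergic and chemokine receptors such as P2ry12 and Cx3cr1, clear debris with complement and lysosomal proteins, and secrete cytokines and chemokines when activated. In the resting state they carry little MHC class II, the peptide receptor that shows antigen to CD4 T cells. Interferon gamma from lymphocytes raises it through the coactivator Ciita. In this mouse glioma, microglial Ccl5 is known to support tumour growth, and T cell Ccl4 is known to raise microglial Ccl5.

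The genes that define the members share a promoter module, the W, X and Y boxes, on which Ciita acts. The 250 bases before the start of H2-Aa and H2-Eb1 are shown because their RNA sets the threshold, with capitals marking the Y box letters CTGATTGG and the X1 core letters GCAAC. Both promoters are from RefSeq on GRCm38.p6, H2-Aa at chr17:34287824-34288073 on the minus strand and H2-Eb1 at chr17:34305617-34305866 on the plus strand.
H2-Aa: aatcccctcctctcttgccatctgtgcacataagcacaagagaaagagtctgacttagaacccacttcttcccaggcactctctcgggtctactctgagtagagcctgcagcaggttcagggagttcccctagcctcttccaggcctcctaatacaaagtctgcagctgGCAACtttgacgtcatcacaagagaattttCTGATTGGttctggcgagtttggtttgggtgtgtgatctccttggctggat
H2-Eb1: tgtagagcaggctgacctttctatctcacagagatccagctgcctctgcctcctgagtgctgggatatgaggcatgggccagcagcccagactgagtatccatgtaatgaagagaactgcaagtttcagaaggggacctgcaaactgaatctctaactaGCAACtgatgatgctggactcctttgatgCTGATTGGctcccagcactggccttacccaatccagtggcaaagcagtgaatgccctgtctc
The Y box began 51 bases before the start of H2-Aa and 62 before that of H2-Eb1, and the X1 core 81 and 91 bases before. On either strand, CTGATTGG occurred in 3.83% of 32851 promoter windows, GCAAC in 29.9% and both in 1.22%, so the short core alone is common. H2-Ab1 lies on the same chromosome at chr17:34257689-34269419.

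Both libraries were deep enough for per-gene sums. The vancomycin library held 16596 barcodes and 144451114 UMIs and the control library 4272 barcodes and 25609899 UMIs. Members had a median of 6273 UMIs in the vancomycin library, against 5885 in the control, and their summed UMIs were 5409191, against 5117704. The libraries shared 100 barcodes, of which 1 was a member in both. The pools may differ in sex, since Xist, the RNA of the inactive X chromosome, stood at 207 CPM (counts scaled so that the group sums to 1e6) in vancomycin members and 370 CPM in control members, and at 51.3 against 389 CPM in T cells. The part of sex in any difference below was not tested.

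The label fitted most members, and more of the control ones. Cx3cr1, the fractalkine receptor and a microglial marker outside the rule, had 752 CPM in vancomycin members and 1316 CPM in control members. Among T cells of the same libraries it had 21.4 and 22.0 CPM. Gpr84, a fatty acid receptor of activated microglia, had 151 and 1026 CPM in members, against 0.110 and 0.462 CPM in T cells. The sialic acid receptor Siglech had 400.1 and 643 CPM in members. These 3 genes were not absent from the 101 vancomycin and 15 control border-associated macrophages. There Cx3cr1 had 263 and 253 CPM, Gpr84 15.5 and 74.5 CPM, and Siglech 77.4 and 74.5 CPM. The 12 markers of border-associated macrophages summed to 31.2 CPM in vancomycin members and 101 CPM in control members, and were seen in 116 of 614 and 208 of 770 members. Among them Cd163 and Lyve1 were at or under 0.391 CPM in both libraries, F13a1 stood at 0.739 against 32.8 CPM and Ms4a7 at 0 against 7.03 CPM. Trac of T cells was at 0.185 and 0.195 CPM.

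A share of the vancomycin members carried RNA of other cells. Oligodendrocyte markers made up at least 1% of the UMIs of 116 of 614 vancomycin members (18.9%, 15.9 to 22.2), and of 1 of 770 control members. All 12 of these markers were detected in vancomycin members, at a summed 23009 CPM, and 10 of 12 in control members, at 1104 CPM. Mbp, a myelin protein gene, stood at 2080.2 CPM in vancomycin members and 44.4 CPM in control members, and at 1335 against 113 CPM in T cells, which do not make myelin. B and plasma cell markers reached 1% in 23 and 7 members, and 10 cells held 62.2% of these UMIs in the vancomycin library and 96.4% in the control. Markers of fibroblasts and vessels summed to 719 CPM in vancomycin members and 464 CPM in control members, monocyte markers to 508 and 476 CPM, and T cell markers to 16.6 and 21.9 CPM. Erythroid markers summed to 6828 against 47.1 CPM, with 98.8% of the vancomycin sum in 10 cells.

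The lower limit of the rule let in many of these barcodes. Of the 105 vancomycin members with exactly 2 UMIs of P2ry12 and Tmem119, 21 (interval 12.8 to 28.9%) had at least 100 of 10000 UMIs from 5 genes that microglia express strongly, the C1q genes among them. Among the 90 such control members 69 did (76.7%, 66.6 to 84.9). Just outside the limit, with 1 UMI, the share was 9.05% of 420 vancomycin barcodes and 60.9% of 138 control barcodes. Over all members it was 478 of 614 (77.9%) and 732 of 770 (95.1%). A reduced set was therefore formed after these values were seen. It keeps the members with that 5-gene level and with under 1% of UMIs from oligodendrocyte and from B and plasma cell markers, 433 in the vancomycin library and 730 in the control library. In the reduced set Mbp stood at 730.2 against 47.0 CPM, Cx3cr1 at 1422 against 1456 CPM and P2ry12 at 1364 against 1349 CPM. Erythroid markers still summed to 6172 against 49.0 CPM there, with 99.5% of the vancomycin sum in 10 cells. Markers of oligodendrocyte precursors summed to 149 against 5.51 CPM, with 97.1% of the vancomycin sum in 10 cells. The main comparisons of the libraries below are given for all members and for the reduced set, and levels of those 5 genes in the reduced set are fixed in part by how it was formed. Levels of P2ry12 and Tmem119 are fixed in part by the rule in every set of microglia here.

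**Figure D1:**
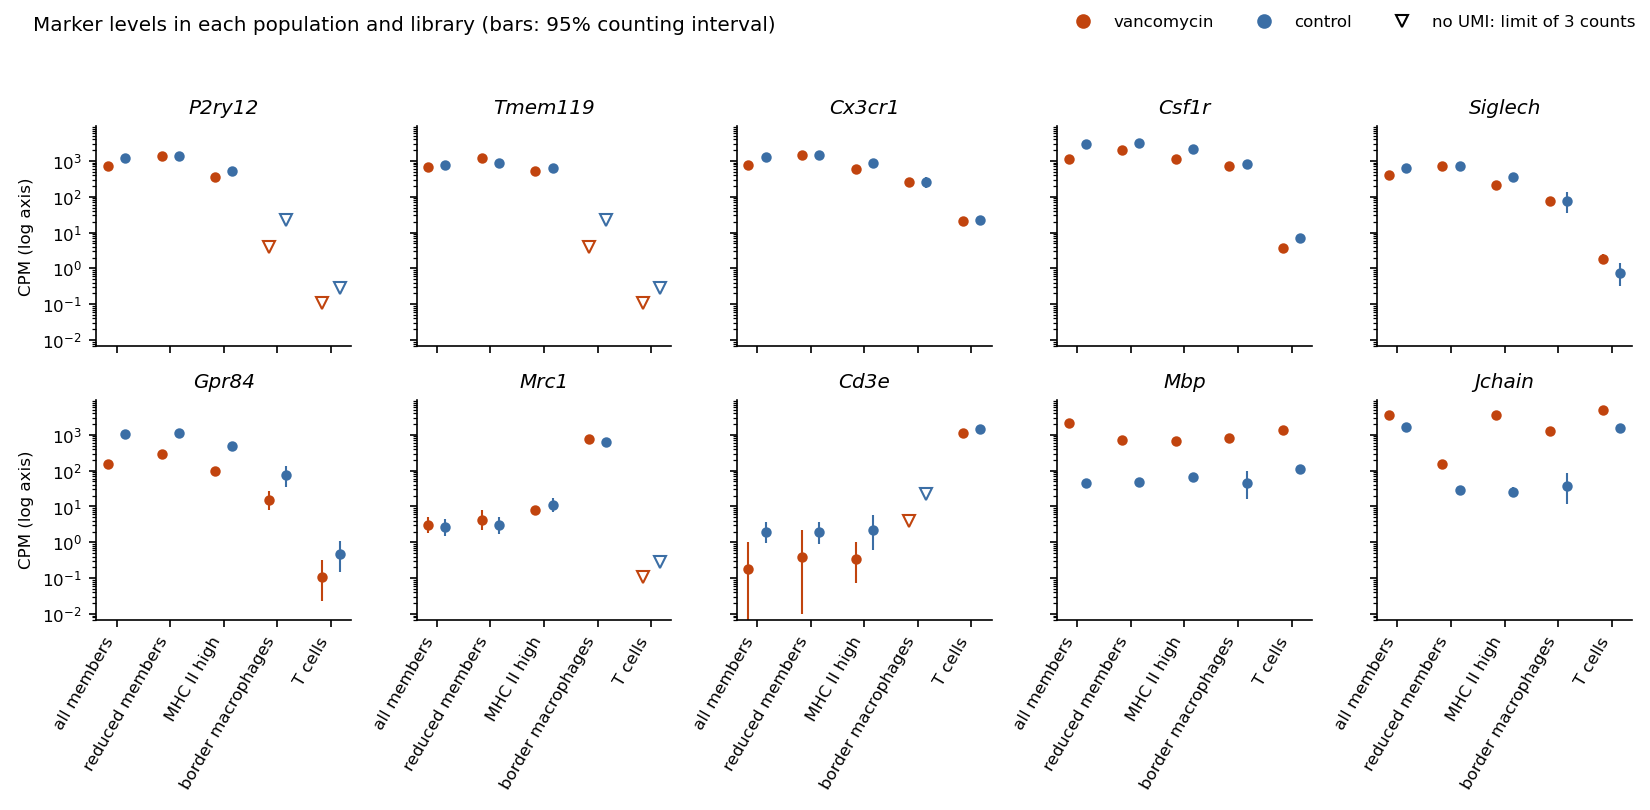
Levels of 10 marker genes in CPM on a log axis, in 5 populations of the vancomycin (orange, left) and control (blue, right) libraries; bars are 95% counting intervals, open triangles mark the limit of 3 counts where no UMI was seen. Mbp stood at 2080.2 against 44.4 CPM in all members and at 730.2 against 47.0 CPM in the reduced set, while P2ry12, which is in the rule, stood at 1364 against 1349 CPM there.

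A smaller share of microglia was low in MHC class II in the vancomycin library. Of the barcodes that met the first 3 conditions, 614 of 1376 (44.6%, 42.0 to 47.3) were members in the vancomycin library, against 770 of 977 (78.8%, 76.1 to 81.3) in the control. Within the reduced set's limits the shares were 433 of 1075 (40.3%, 37.3 to 43.3) and 730 of 934 (78.2%, 75.4 to 80.8). With every barcode thinned to 1000 UMIs they were 333 of 562 (59.3%) and 446 of 537 (83.1%). The libraries therefore differed by more than counting error with or without the barcodes that carry other RNA. Members were 3.90% of all kept vancomycin barcodes and 18.7% of control barcodes, a share that also moves with how many other cells each suspension held.

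The members themselves sat at different places below the threshold. No MHC class II UMI at all was seen in 290 vancomycin members (47.2%, 43.2 to 51.3) and in 531 control members (69.0%, 65.6 to 72.2). Just inside the threshold, at 25 to 50 per 10000, lay 96 and 27 members, and just outside, at 50 to 100, lay 124 and 55 barcodes. There was no gap at the threshold in either library. Free RNA can place single MHC class II UMIs in a cell, and H2-Aa was found in 12.6% of vancomycin T cells and 5.91% of control T cells, at median depths of 4363.5 and 5081 UMIs. In members the shares were 37.8% and 18.1%.

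**Figure D2:**
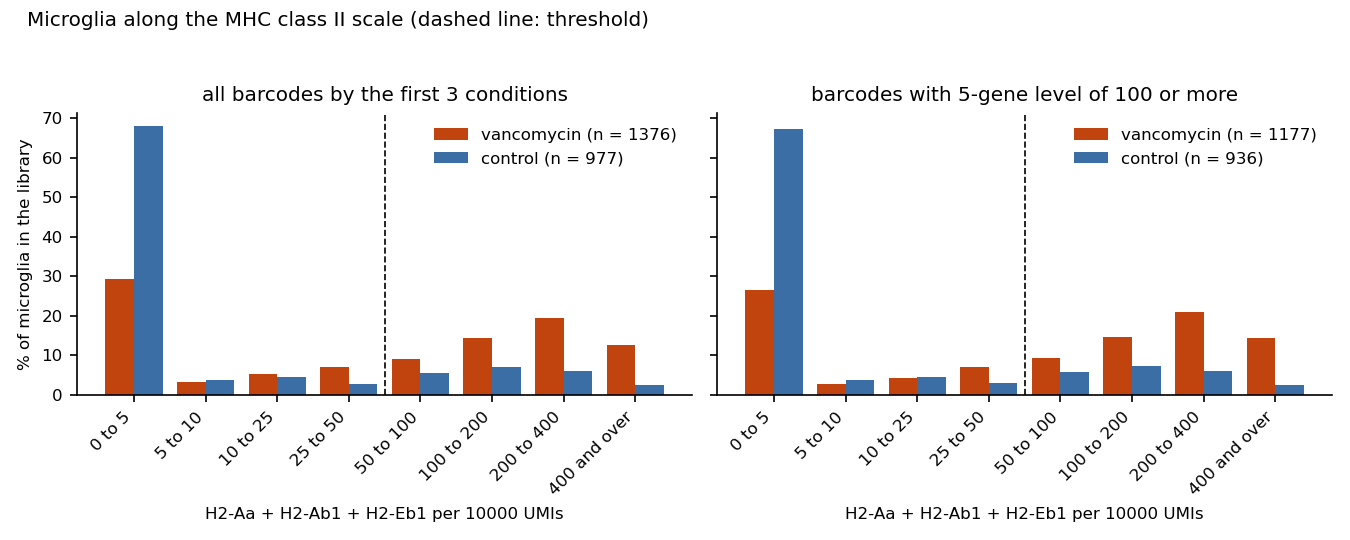
Share of microglia (y axis, % of microglia in the library) in each interval of MHC class II UMIs per 10000 (x axis), vancomycin orange and left, control blue and right, for all barcodes by the first 3 conditions and for those with the 5-gene level; the dashed line is the threshold. Most control microglia sit in the lowest interval, 663 of 977, against 403 of 1376 in the vancomycin library.

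Between the libraries, the main contrast among members was in inflammatory genes, which were lower with vancomycin, while the markers of microglial identity depended on which barcodes were counted. UMIs were summed over members, and log2 ratios here have 10 CPM added above and below the line, which understates the change of low genes. Of 10933 genes with at least 50 UMIs, 1110 (10.2%) were at least 2-fold higher in vancomycin members and 420 (3.84%) at least 2-fold lower. Over the same genes the reduced set gave 342 higher and 237 lower. Of the 1110 higher genes 219 were also called in the reduced set, and of the 420 lower genes 191 were. The median log2 ratio of all genes was 0.14 in all members and 0.10 in the reduced set. Scaled by TMM factors in place of the total, all members gave 876 higher and 605 lower, since the median of all genes then moves by -0.14. A call here is a size and no test.

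Cytokines and the NF-kappaB pathway, which switches on inflammatory genes, were lower as a group. Of 24 genes measured 20 were at least 2-fold lower and 0 higher in all members, with a median log2 ratio of -1.58. In the reduced set 10 were lower and 1 higher, with a median of -0.84, and that 1 was Nfkbia, the inhibitor of NF-kappaB, at 1.06, a gene picked out after its value was seen. Il1b, the inflammasome cytokine interleukin 1 beta, had 188 CPM in vancomycin members and 1421 CPM in control members. The reduced set had 330 and 1543 CPM, a ratio of 0.214 (0.199 to 0.230). Il1a, its neighbour on chromosome 2 at chr2:129299610-129309972, had 507 against 2408 CPM, and 925 against 2674 CPM in the reduced set. Both interleukins were thus lower whichever members were counted. Il1rn, the secreted antagonist of the interleukin 1 receptor, had 2.96 against 123 CPM (ratio 0.0241, 0.0137 to 0.0395). Tnf had 191 against 589 CPM, and 360 against 652 CPM in the reduced set, where it no longer passed 2-fold (log2 ratio -0.84). Cd83, an activation marker of antigen-presenting cells, had 621 against 2234 CPM, and 1136 against 2462 CPM in the reduced set. In microglia high in MHC class II the list's median was -0.58, and in T cells 0.07. Neutrophil markers, which belong to cells that also make interleukin 1, summed to 88.4 CPM in vancomycin members and 250.1 CPM in control members, and to 164 and 279 CPM in the reduced set. Of the 7 markers 4 were at 0 in vancomycin members and 1 in control members. S100a8 had 0.185 against 41.4 CPM, and 10 cells held 10.0% and 44.5% of the list's UMIs. The part of neutrophil RNA in the cytokine values was not tested.

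Chemokines, which attract leukocytes, and their receptors were mostly lower too, with 3 of 20 above a log2 ratio of 0 in all members and likewise 3 in the reduced set. Ccl3, a ligand of Ccr1 at chr11:83647844-83649355, had 162 CPM in vancomycin members and 1571 CPM in control members. The reduced set had 284 and 1743 CPM, a ratio of 0.163 (0.151 to 0.176). Its neighbour Ccl4, at chr11:83662584-83664683, had 568 against 4022 CPM, and 964 against 4460 CPM in the reduced set (ratio 0.216, 0.207 to 0.225). Both stayed at least 2-fold lower under each of 16 alternatives, with log2 ratios of -3.90 to -1.68 for Ccl3 and -3.52 to -1.92 for Ccl4. Ccl7, a monocyte attractant, had 6.66 against 128 CPM, and Cxcl2, a neutrophil attractant, had 12.8 against 165 CPM. Ccl5, the T cell attractant tied to growth of this tumour, went the other way, with 136 against 72.3 CPM in all members (ratio 1.88, 1.65 to 2.13) and 171 against 79.4 CPM in the reduced set (ratio 2.16, 1.87 to 2.49). Its log2 ratio of 0.82 was 0.15 at an MHC class II threshold of 25 and -1.20 less the median of the other 3 populations. Over the list, 9 of 20 genes were at least 2-fold lower and 0 higher in all members (median -0.93), and 6 lower with Ccl5 alone higher in the reduced set (median -0.54). T cells, which make Ccl5, had 3501 and 3556 CPM of it, and the part of their free RNA in the members' level was not tested.

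The share of members with a transcript gave the same order for Ccl3 and Il1b. Each cell was thinned to 1000 UMIs and shallower cells were left out, 10 vancomycin and 57 control cells among members with the 5-gene level. Ccl3 was then found in 40 of 468 vancomycin members (8.55%, 6.18 to 11.5) and 262 of 675 control members (38.8%, 35.1 to 42.6), and unthinned in 19.0% and 55.7%. In T cells the thinned shares were 2.95% and 0.948%. Il1b was found in 11.5% (8.79 to 14.8) and 29.6% (26.2 to 33.2), against 69 of 4135 and 18 of 1794 T cells. Tnf was found in 18.8% (15.4 to 22.6) and 25.5% (22.2 to 28.9), but unthinned in 49.2% and 48.9%. Cx3cr1 was found in 70.9% (332 of 468) and 70.7% (477 of 675), which differ by less than counting error at this depth. Unthinned, its shares were 95.0% (92.6 to 96.8) and 90.0% (87.6 to 92.1), and these intervals do not overlap.

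Receptors for bacterial products and metabolites, the sensors through which macrophages meet microbial molecules, were lower too. Of 19 measured, 9 were at least 2-fold lower in all members (median -0.998) and 6 in the reduced set (median -0.38), with 0 higher in either. In microglia high in MHC class II 7 were lower and 1 higher (median -0.42), so the difference was not particular to members. In T cells 0 were called either way (median 0.04). Cd14, the coreceptor for lipopolysaccharide, had 446 CPM in vancomycin members and 3251 CPM in control members, and 810 against 3562 CPM in the reduced set. Gpr84 had 151 against 1026 CPM, and 293 against 1127 CPM in the reduced set (ratio 0.260, 0.240 to 0.281). At 1000 UMIs, Gpr84 was found in 19.0% (15.6 to 22.9) of vancomycin and 35.3% (31.7 to 39.0) of control members with the 5-gene level. Unthinned, these shares were 50.4% (45.8 to 55.0) and 54.0% (50.3 to 57.6). The complement receptors C3ar1 and C5ar1, which sense cleaved complement, were the only 2 of 24 complement and phagocytosis genes at least 2-fold lower in the reduced set. C3ar1 had 298 against 1057 CPM there and C5ar1 147 against 416 CPM, while the list's median was -0.03.

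**Figure D3:**
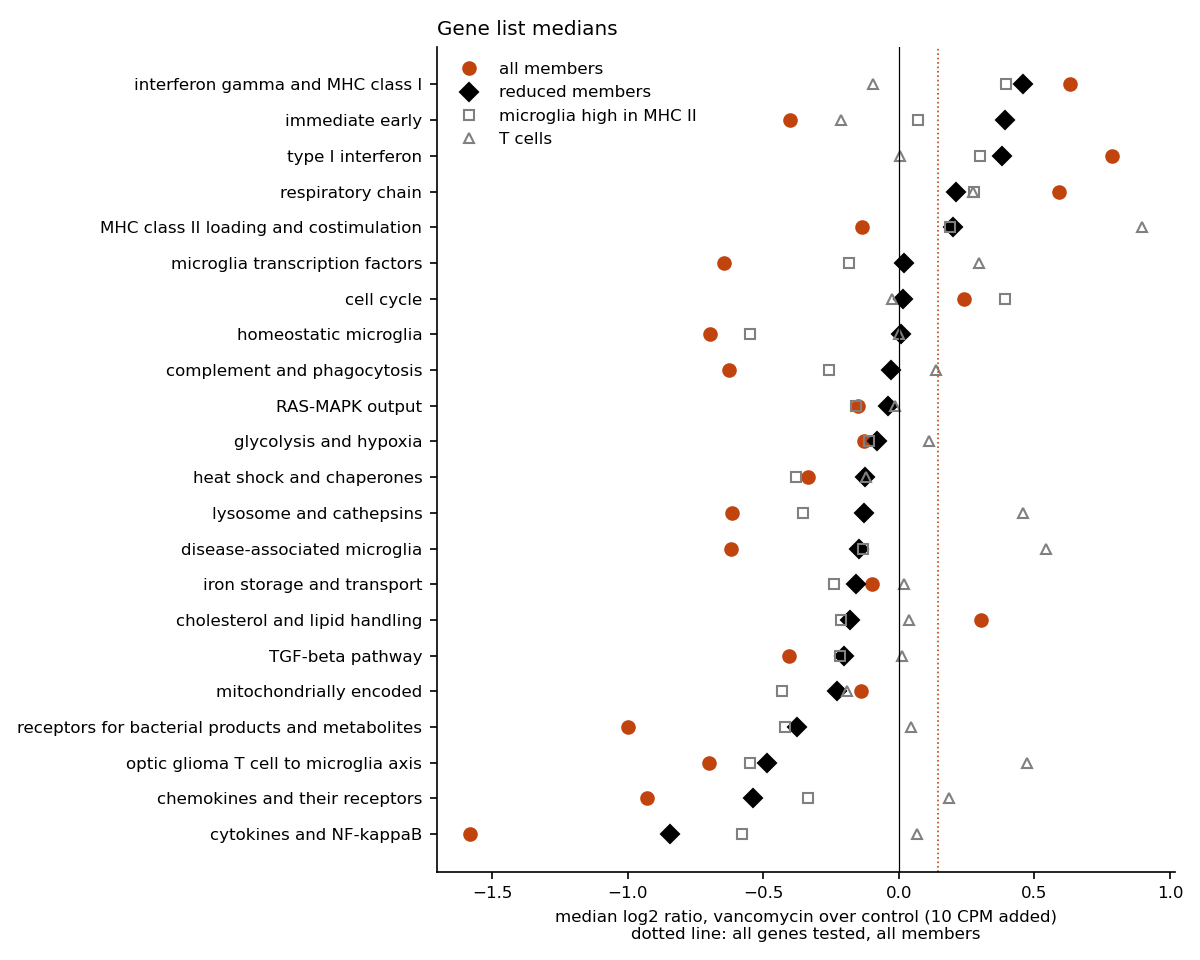
Median log2 ratio of vancomycin over control for 22 gene lists (rows), in all members (orange circles), the reduced set (black diamonds), microglia high in MHC class II (squares) and T cells (triangles); the dotted line is the median of all genes tested in all members. The cytokine list is the lowest of the 22, at -1.58 in all members and -0.84 in the reduced set, and the homeostatic list moves to 0.01 in the reduced set.

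Several genes of plasminogen activation, adhesion and signalling stood at the low end of the whole transcriptome. Plau, the urokinase-type plasminogen activator at chr14:20836660-20843385, had 30.9 CPM in vancomycin members and 711 CPM in control members (ratio 0.0434, 0.0370 to 0.0507). The reduced set had 56.6 and 790 CPM. The log2 ratio was -3.95 in microglia high in MHC class II and -0.13 in T cells, so the difference was found in microglia on both sides of the threshold. Trib1, a pseudokinase that promotes protein turnover, had 50.7 against 560 CPM, and 67.6 against 602 CPM in the reduced set. Rcan1, an inhibitor of calcineurin, had 59.3 against 674 CPM, and Itga5, the fibronectin receptor subunit, had 37.3 against 358 CPM. Rcan1 was also lower in border-associated macrophages (log2 ratio -3.28), and less the median of the other 3 populations its value was -0.42. Ptgds, which makes prostaglandin D2 and is abundant in meningeal cells, had 423 against 564 CPM in all members but 22.0 against 595 CPM in the reduced set, while it was higher with vancomycin in T cells (log2 ratio 3.95) and, without possible doublets, in members (0.86).

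Interferon genes ran against the cytokines. Of 24 type I interferon genes, 10 were at least 2-fold higher and 1 lower in all members (median 0.79), and 7 higher and 0 lower in the reduced set (median 0.38); the 1 lower was Slfn2 at -1.44, named here after its value was seen. Ifit2, an antiviral protein gene, had 69.9 CPM in vancomycin members and 10.2 CPM in control members, and 52.7 against 9.26 CPM in the reduced set. With possible doublets left out its log2 ratio was 0.56, under 2-fold. Ifit3 had 153 against 34.0 CPM, and 56.2 against 24.7 CPM in the reduced set (ratio 2.28, 1.76 to 2.94), where with 10 CPM added it was under 2-fold (log2 ratio 0.93), as it was without possible doublets (0.21). Of 25 interferon gamma and MHC class I genes, 6 were at least 2-fold higher and 0 lower in all members (median 0.63). In the reduced set 5 were higher, Irgm1, Irgm2, Iigp1, Irf1 and Socs1, named after their values were seen. Iigp1, an immunity-related GTPase, had 247 against 40.6 CPM, and 105 against 23.4 CPM in the reduced set (ratio 4.51, 3.59 to 5.70). It was at least 2-fold higher under each of 16 alternatives, with log2 ratios of 1.08 to 2.57. Cd74, the invariant chain of MHC class II, had 2675 against 1952 CPM, and 2986 against 1870 CPM in the reduced set. This direction did not hold at a like place on the MHC class II scale: with the 5-gene level, Cd74 had 438 against 711 CPM at 0 to 5 and 9548 against 11725 CPM at 25 to 50, and was lower with vancomycin in each interval. At a threshold of 25 its log2 ratio over members was -0.16, and with at least 1 UMI of P2ry12 and Tmem119 it was -0.13. At 1000 UMIs, the share of members with the 5-gene level that had at least 2 UMIs of the type I interferon list was 38.2% (33.8 to 42.8) in the vancomycin library and 32.9% (29.4 to 36.6) in the control, and 80.2% and 72.5% in T cells.

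For markers of resting microglia the result depended on which barcodes were counted. Over 25 homeostatic genes the median log2 ratio was -0.70 in all members and 0.01 in the reduced set, under the median of all genes. P2ry12 and Tmem119 are in the rule, so their levels are fixed in part by it. P2ry12 had 742 against 1220 CPM in all members and 1364 against 1349 CPM in the reduced set (ratio 1.01, 0.969 to 1.05). Cx3cr1 had a ratio of 0.571 (0.549 to 0.594) in all members and 0.977 (0.938 to 1.02) in the reduced set. Tmem119, a surface protein of microglia, had 657 against 774 CPM in all members and 1185 against 850 CPM in the reduced set, so its direction turned. Csf1r, the receptor that keeps microglia alive, stayed lower, with 1108 against 2942 CPM in all members and 2076 against 3264 CPM in the reduced set (ratio 0.636, 0.616 to 0.657). In the reduced set Sall1 and Txnip were at least 2-fold higher and Fcrls at least 2-fold lower, named after their values were seen. Sall1, a transcription factor of microglial identity, had 139 against 50.7 CPM there. It was also higher with vancomycin in microglia high in MHC class II, at 50.8 against 23.1 CPM. In T cells it had 4.75 against 0.0924 CPM, in 95 of 4164 and 1 of 1861 cells. The part of free RNA in its level was not tested. Trem2, a lipid sensor, had 648 against 960 CPM, and 1195 against 1066 CPM in the reduced set. Apoe, a lipid carrier of activated microglia, had 2285 against 2949 CPM, and 3282 against 3189 CPM in the reduced set. Of 22 disease-associated microglia genes, Lpl, Csf1 and Lgals3 were at least 2-fold lower in the reduced set and 0 higher, again named with their values known.

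Immediate early genes, transcribed within minutes of stimulation or of tissue handling, were split. In the reduced set 6 of 22 were at least 2-fold higher and 4 lower (median 0.39), against 0 higher and 5 lower in all members (median -0.40). Fos had 3085 CPM in vancomycin members and 1821 CPM in control members, and 5184 against 1426 CPM in the reduced set. Its log2 ratio of 0.76 was -0.08 with at least 1 UMI of P2ry12 and Tmem119 and -0.89 less the median of the other 3 populations. Junb had 3846 against 4287 CPM, and 6857 against 4461 CPM in the reduced set. The 4 lower genes, Nr4a1, Nr4a2, Nr4a3 and Maff, were named after their values were seen. The part of dissociation in these values was not tested.

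Genes of the T cell to microglia axis and of TGF-beta and Nf1 gave a mixed picture. Tgfb1, the cytokine that holds microglia in their resting state, had 196 CPM in vancomycin members and 762 CPM in control members, and 340.0 against 835 CPM in the reduced set. It was lower by a similar amount in T cells (log2 ratio -1.81) and in microglia high in MHC class II (-1.80), and less the other populations' median its value was -0.11. Tgfbr1, its receptor subunit, had 340.3 against 735 CPM, and 614 against 799 CPM in the reduced set, where it was under 2-fold (log2 ratio -0.37). Nf1 itself, the deleted tumour suppressor, which microglia of these mice carry in 1 working copy, had 68.2 against 41.8 CPM, and 98.6 against 41.9 CPM in the reduced set. Its log2 ratio of 0.59 was -0.18 less the median of the other 3 populations.

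**Figure D4:**
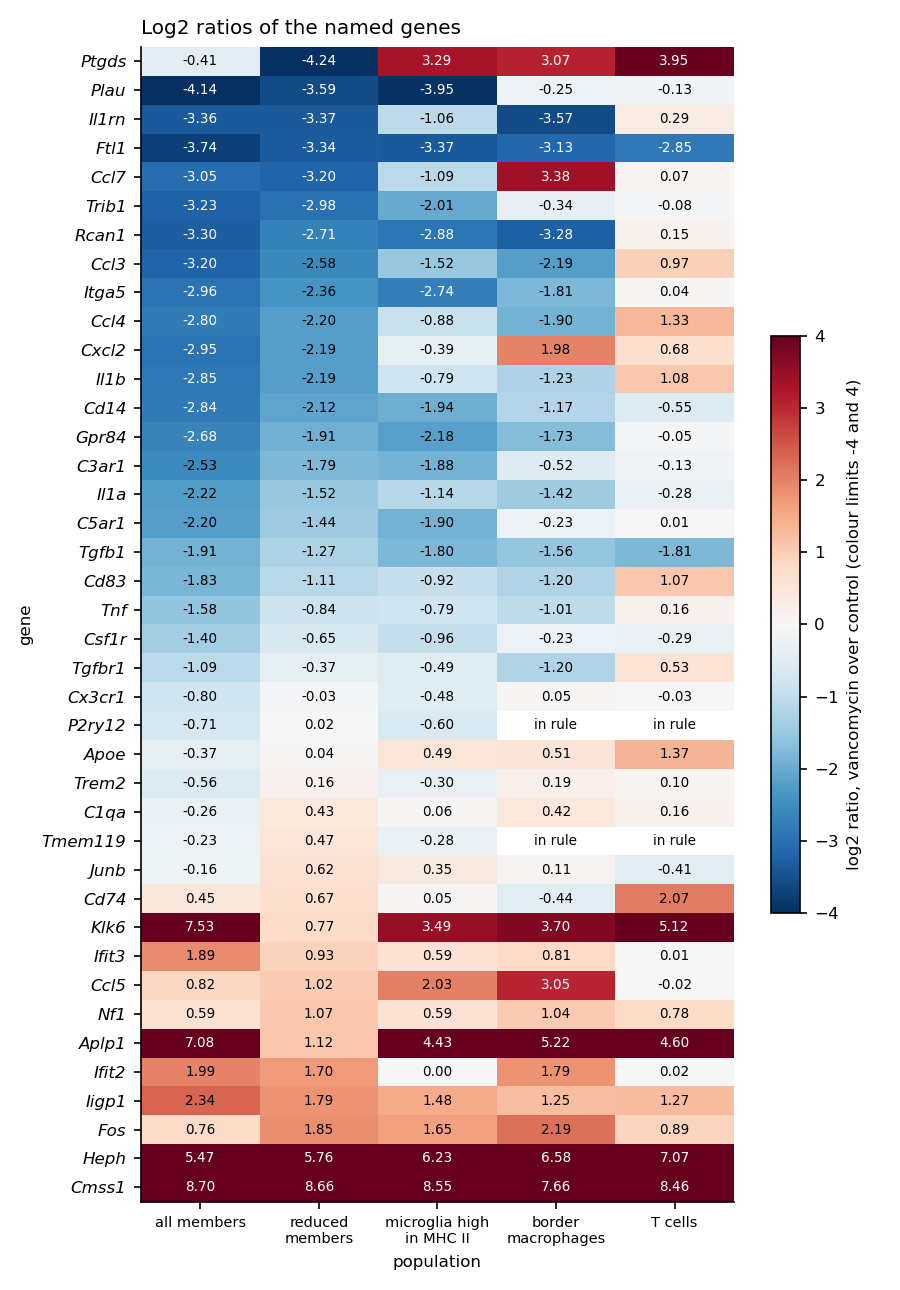
Log2 ratio of vancomycin over control, after adding 10 CPM, for the genes described (rows) in all members, the reduced set and 3 other populations (columns), with the value printed in each cell and colour limits at -4 and 4. Plau, Trib1, Ccl3, Il1b and Gpr84 are lower in members than in T cells, whereas Cmss1 and Heph are above 0 and Ftl1 below 0 in every column.

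The remaining lists held few calls in the reduced set. Of 23 lysosome and cathepsin genes 0 were at least 2-fold higher or lower there (median -0.13), against 3 lower in all members, Ctsc, Hexa and Laptm5, named with their values known. Of 28 respiratory chain genes only Ndufb4 was at least 2-fold lower (log2 ratio -2.58, median 0.21). In microglia high in MHC class II and in T cells 1 gene of this list was likewise at least 2-fold lower, so such a call was not particular to members. Of 15 glycolysis and hypoxia genes Pfkfb3 and Hif1a were lower, at -1.42 and -1.51. Cholesterol genes had 6 of 22 at least 2-fold higher in all members, where oligodendrocyte RNA is also present, and 0 in the reduced set. Hmgcs1, an early enzyme of that pathway, had log2 ratios of 2.11 in all members and -0.13 in the reduced set.

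Genes at the extremes that were shared by every population, or that belong to oligodendrocytes, need to be read apart. Cmss1, a gene with long introns at chr16:57302000-57606864, had 7139 against 7.23 CPM in members, with log2 ratios of 8.70 in members and 8.46 in T cells. Heph, a ferroxidase, had 476 against 0.977 CPM, with log2 ratios of 5.47 and 7.07. Ftl1, the ferritin light chain, whose reads may be shared with near-identical copies such as Ftl1-ps1, had 321 against 4408 CPM, with log2 ratios of -3.74 and -2.85. Such differences occur in all populations of these 2 libraries, which were processed with different versions of Cell Ranger, so version and treatment cannot be told apart for them. Klk6, an oligodendrocyte protease, had 1843 CPM in vancomycin members and no UMI in control members, at least 3145-fold higher against 3 counts over the control members, but 7.07 CPM in the reduced set. Aplp1 had 1656 against 2.34 CPM in all members and 16.5 against 2.21 CPM in the reduced set. Of the 1110 genes at least 2-fold higher in members, 515 (46.4%) were also at least 2-fold higher in T cells, and of the 420 lower genes 55 (13.1%) were also lower there. T cells passed the same limits for 708 of all 10933 genes upward and 152 downward. Of 4 equal groups of genes by intron length, the one with the longest introns (median 100.3 kb) had 17.3% of its genes called higher, against 6.59 to 10.1% in the other 3, and the part of intron reads was not tested.

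Within each library, members and microglia high in MHC class II were set side by side; the rule cuts on this scale, so these are descriptions. In the vancomycin library 988 of 11423 genes (8.65%) were at least 2-fold higher in members and 254 (2.22%) lower. In the control library 307 of 8694 (3.53%) were higher and 118 (1.36%) lower. Of 8626 genes measured in both, 163 were higher in members of both libraries and 83 lower in both, and 8 went opposite ways. Markers of resting microglia were higher in members. P2ry12, which is in the rule on both sides of the threshold, had 742 CPM in members and 347 CPM in high microglia with vancomycin, and 1220 and 532 CPM in the control. Siglech had 400.1 and 215 CPM with vancomycin and 643 and 353 CPM in the control. The median of 25 homeostatic genes was 0.57 with vancomycin and 0.73 in the control, and 1.02 and 0.85 among barcodes with the 5-gene level. P2ry12, Gpr34, Fcrls, Slc2a5 and Ltc4s were at least 2-fold higher in members of both libraries.

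Antigen presentation and interferon genes outside the rule were lower in members. Cd74 had 2675 CPM in members and 36215 CPM in high microglia with vancomycin, and 1952 and 34979 CPM in the control. Of the 17 loading and costimulation genes 12 were at least 2-fold lower in vancomycin members and 9 in control members, among them H2-DMa and H2-DMb1 of the peptide exchange factor, the coactivator Ciita and the costimulatory receptor Cd40. Ccl5 had 136 CPM in members and 2757 CPM in high microglia with vancomycin, and 72.3 and 669 CPM in the control. Cxcl9, an interferon gamma target that attracts T cells, had 44.0 and 880 CPM with vancomycin and 57.1 and 438 CPM in the control. Type I interferon genes were at least 2-fold lower in members for 7 of 24 with vancomycin and 14 of 24 in the control. Apoe had 2285 and 9759 CPM with vancomycin and 2949 and 6928 CPM in the control, and Itgax, an integrin of disease-associated microglia, had 13.1 and 87.5 CPM and 22.9 and 85.8 CPM.

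Inflammatory genes differed in part along this axis between the 2 libraries, a difference that was not tested. The cytokine list had a median log2 ratio, members over high microglia, of -0.28 with vancomycin and 0.63 in the control. Among barcodes with the 5-gene level both medians were positive, at 0.14 and 0.69. Il1b had 188 CPM in members and 1130 CPM in high microglia with vancomycin, and 1421 and 1960 CPM in the control. Ccl3 had 162 and 393 CPM with vancomycin, but 1571 and 1147 CPM in the control. The chemokine list was at least 2-fold lower in members for 11 of 20 genes with vancomycin and for 4 of 20 in the control, which were Ccl5, Ccl12, Cxcl9 and Cxcl14, named with their values known. Among the genes of highest ratio in members of both libraries, Hpgd, which degrades prostaglandins, had 186 and 37.6 CPM with vancomycin and 302 and 38.4 CPM in the control. Its log2 ratio was 2.66 and 2.84 among barcodes with the 5-gene level. Igfbp5, Mgp, Efemp1 and Ccn3, which fibroblasts express, also ranked there over all members, but their log2 ratios were below 0 in both libraries among barcodes with the 5-gene level, from -2.07 to -0.27.

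The intervals of the MHC class II scale showed where these differences lay, with the 5-gene level applied. P2ry12 was close in the 2 libraries at each step below the threshold, with 1447 CPM in 313 vancomycin cells and 1424 CPM in 629 control cells at 0 to 5, and 804 and 853 CPM at 25 to 50. It is in the rule, so its level is fixed in part. Cx3cr1, outside the rule, had 1423 and 1505 CPM at 0 to 5 and 1015 and 1125 CPM at 25 to 50. Gpr84 was lower with vancomycin at every step, with 291 and 1181 CPM at 0 to 5 and 212 and 608 CPM at 25 to 50. Ccl3 was lower with vancomycin at every step too, with 247 and 1820 CPM at 0 to 5 and 287 and 931 CPM at 25 to 50. The difference in these genes was therefore present among cells matched for MHC class II. Ccl5 had no single direction below the threshold, with 37.5 and 52.1 CPM at 0 to 5, 363.3 and 34.3 CPM at 5 to 10, 208 and 363 CPM at 10 to 25 and 572 and 277 CPM at 25 to 50. Above the threshold it was higher with vancomycin in each interval, with 3835 and 1115 CPM at 200 to 400. B2m, the light chain of MHC class I, was close at 0 to 5, with 1831 and 1815 CPM. Control intervals above 5 held 24 to 68 cells each, so their levels carry more counting error.

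**Figure D5:**
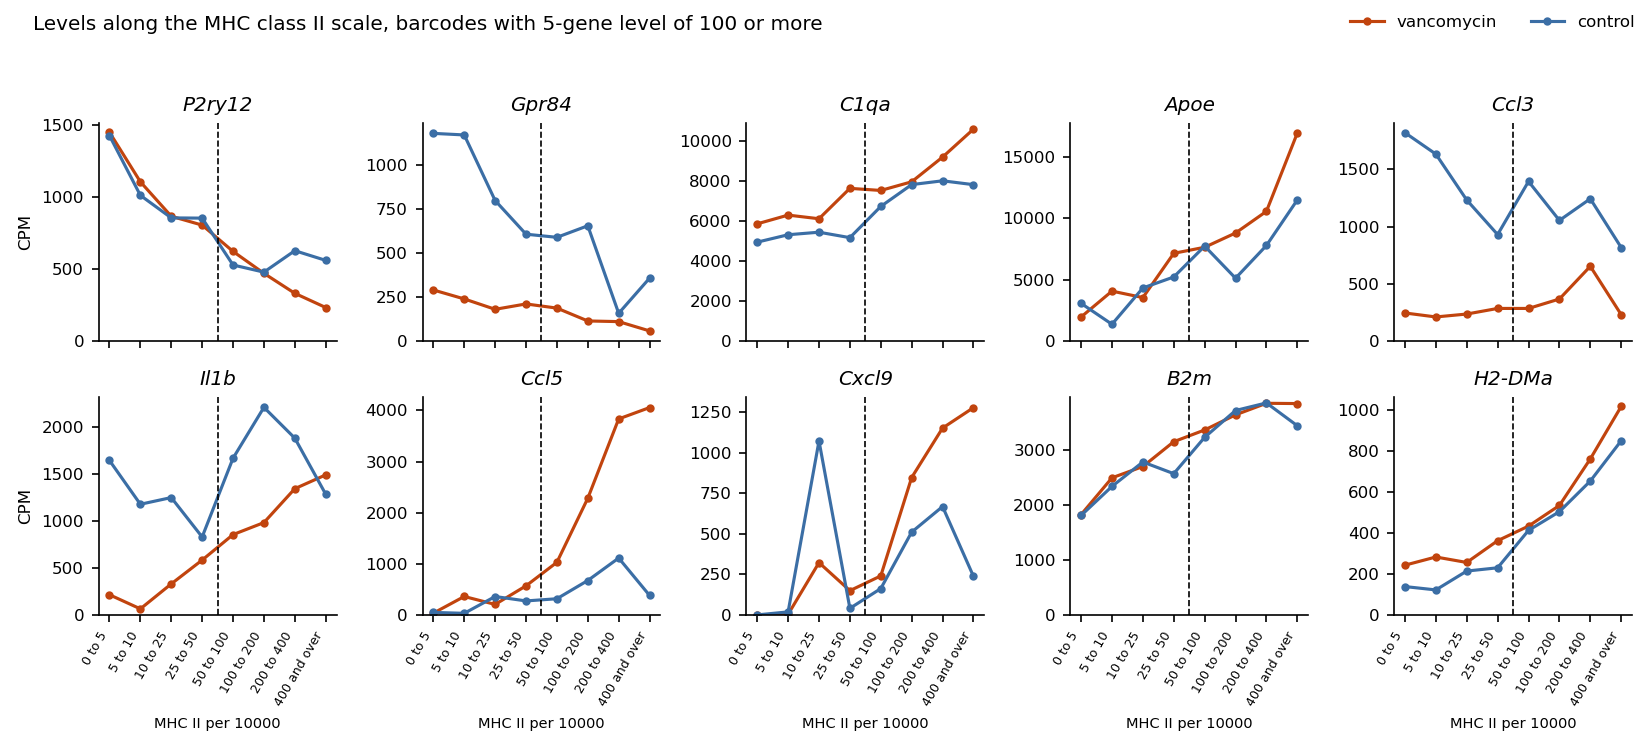
Levels in CPM (y axis) of 10 genes along the MHC class II scale (x axis, UMIs per 10000) for vancomycin (orange) and control (blue) barcodes with the 5-gene level; the dashed line is the threshold. P2ry12, which is in the rule, is lower in the higher intervals, with close levels in both libraries below the threshold, while Gpr84 and Ccl3 are lower with vancomycin in every interval.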

How the data were processed

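Single-cell RNA of optic nerve suspensions was measured with 10x 5' v2 libraries. The authors deposited UMI counts per gene and barcode. Per the file headers, Cell Ranger was version 7.2.0 (vancomycin) and version 6.0.1 (control), and the build was mm10, per the submitters' processing notes, which also name Partek. The counting of introns was not given in the sources used here.

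Barcodes with at least 500 UMIs, 200 genes and at most 20% mitochondrial UMIs were kept. Doublets were left in, and leaving out possible ones was an alternative. It dropped barcodes with over 2 UMIs of the T cell, B cell, NK cell, dendritic cell or neutrophil markers. Those over 3 times the library's median UMIs were dropped too. It kept 369 of 614 vancomycin and 438 of 770 control members, and shares of kept barcodes still divided by all kept barcodes. Dendritic cell markers were seen in 441 vancomycin and 569 control members. Counts were summed over members per library and scaled to CPM. Ratios have exact conditional Poisson intervals and shares Clopper-Pearson intervals. T cells had at least 2 UMIs of Cd3d, Cd3e and Cd3g and border-associated macrophages at least 5 of Mrc1 and Pf4, both with none of P2ry12 and Tmem119. Named genes were the 10 highest and 10 lowest ratios, the 6 highest and 6 lowest relative to the other populations, in each list the 2 of highest level and the 2 of largest ratio, the markers and the genes of the study's question; others are marked where named. Members and lists were chosen with earlier results of these data known. Scripts ran in Python 3.11.15 with scipy 1.17.1, numpy 2.4.6, pandas 2.3.3 and matplotlib 3.10.9, and in R 4.3.3, with edgeR 4.0.16 and DESeq2 1.42.0 used for scaling factors only. The scripts were tested on simulated data. Some genes are not reported here.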

Additional observations from a re-analysis of the deposited data

Results flagged for a closer look

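The 5 cases here come from a limited set of genes and are not a full count. Each gene was at least 2-fold lower in members and at least 2-fold higher in another population of the same 2 libraries. These differences were not tested. Of the 1110 genes at least 2-fold higher in members, 3 (0.27%) were called the opposite way in T cells. Of the 420 lower genes, 11 (2.62%) were. Ccl4 had a log2 ratio of -2.80 in members and 1.33 in T cells, a gap of -4.13, with 332 CPM in vancomycin T cells and 126 CPM in control T cells. Il1b had -2.85 in members and 1.08 in T cells, a gap of -3.93, with 86.8 and 36.0 CPM in T cells. Few T cells held it, 126 of 4164 with vancomycin (3.03%, 2.53 to 3.59) and 45 of 1861 in the control (2.42%, 1.77 to 3.22). These intervals overlap, and the part of doublets and free RNA in the T cell value of Il1b was not tested. Cd83 had -1.83 in members and 1.07 in T cells, a gap of -2.90, with 89.9 and 37.4 CPM in T cells. Ccl7 had -3.05 in members and 3.38 in border-associated macrophages, a gap of -6.43, with 713 CPM in 101 vancomycin and 59.6 CPM in 15 control macrophages. Cxcl2 had -2.95 in members and 1.98 in the same macrophages, a gap of -4.93, with 708 and 171 CPM there.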

How the results depend on the processing

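With 1 library per group, treatment, pool, sex makeup and Cell Ranger version cannot be told apart, and the intervals cover counting error only. The ratio of vancomycin to control members as a share of kept barcodes was 0.208. It was 0.297 with at least 1 UMI of P2ry12 and Tmem119, 0.197 with at least 4, 0.182 and 0.234 at MHC class II thresholds of 25 and 100, 0.220 without possible doublets, 0.171 with the 5-gene level, 0.155 in the reduced set and 0.186 after thinning. The ratio of the shares of microglia that were low was 0.566, and 0.641 with at least 1 UMI, 0.495 and 0.635 at thresholds of 25 and 100, 0.574 without doublets, 0.519 with the 5-gene level, 0.515 in the reduced set and 0.713 after thinning. The 1110 genes at least 2-fold higher became 732 with at least 4 UMIs, 446 without doublets, 505 with the 5-gene level, 289 in the reduced set with its own minimum of 50 UMIs, 2022 and 337 with 1 and 50 CPM added, 311 after thinning, 479 less the median of the other 3 populations and 725 with a minimum of 200 UMIs. The 420 lower genes became 887 with at least 1 UMI, 197 without doublets, 252 with the 5-gene level, 234 in the reduced set, 652 and 177 with 1 and 50 CPM added, 200 with every cell weighted equally, 195 after thinning and 208 less the other populations. TMM factors gave 876 higher and 605 lower and DESeq2 size factors 871 and 610. The homeostatic median reversed to 0.0094 and the transcription factor median to 0.018 in the reduced set. The immediate early median of -0.40 reversed to 0.076 with at least 4 UMIs, 0.19 without doublets, 0.25 with the 5-gene level, 0.39 in the reduced set, 0.24 with equal weights and 0.30 after thinning. The MHC class II loading median of -0.14 reversed to 0.0079 with at least 4 UMIs, 0.085 at a threshold of 100, 0.24 without doublets, 0.13 with the 5-gene level, 0.20 in the reduced set and 0.15 with equal weights. Heph less the other populations reversed to -1.11. The cause of these reversals was not tested. The 5-gene level and the reduced set were chosen after seeing the data. No paired analysis was possible because there is 1 library per group and no test.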
